A study of Saccharomyces cerevisiae with 12 samples.

Results

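BAT1 and BAT2 encode the branched-chain aminotransferases of Saccharomyces cerevisiae, and their transcripts are described here over a strain lacking LEU3 and its reference, each under carbon and nitrogen limitation. The pair was taken by gene symbol, which gave 2 of the 5656 genes that a probe set of the array identified, and both were among the 5321 genes with enough signal to be tested. BAT1 is YHR208W and BAT2 is YJR148W, and each was read by 1 probe set. Without LEU3, BAT1 fell under both limitations, by 2.92-fold with nitrogen and 2.67-fold with carbon limiting. BAT2 rose 2.38-fold under nitrogen limitation and did not pass the test under carbon limitation.

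A branched-chain aminotransferase moves the amino group between glutamate and the keto acids of leucine, isoleucine and valine. The reaction is the last step in the synthesis of these amino acids and, run in reverse, the first step of their breakdown by the Ehrlich pathway, whose end products include fusel alcohols. In yeast Bat1 is mitochondrial and is mainly associated with synthesis, while Bat2 is cytosolic and is mainly associated with breakdown. Leu3 is a transcription factor that activates genes of leucine synthesis when it binds the pathway intermediate alpha-isopropylmalate, and it can repress them when it does not.

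Total RNA from 12 chemostat samples was hybridised to 1-channel Affymetrix arrays, 3 for each of 4 groups. The reference was CEN.PK113-7D (MATa LEU3), and the deletion strain was CEN.PK540-3A, MATa with most of LEU3 replaced by a loxP-Kan-loxP marker. Both strains are haploid and prototrophic. The deletion is represented by 1 strain, so any other difference between the strains and the loss of LEU3 cannot be told apart. All cultures grew at 30 °C, pH 5.0 and a dilution rate of 0.10 per h. Carbon-limited cultures were fed 6.0 g/l ethanol with 5.0 g/l ammonium sulfate. Nitrogen-limited cultures were fed 1.0 g/l ammonium sulfate with glucose in excess (about 17 g/l residual), the feed being 59 g/l in the reference and 53 g/l in the deletion cultures. The limiting nutrient and the carbon source therefore change together. The labels number the arrays within a group without saying that they came from separate cultures, so p-values measure the spread between these samples. An intensity is an average over a culture, in which fewer cells with a transcript and less of it per cell cannot be told apart.

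The LEU3 probe set gave an intensity of 0.3 to 0.6 on the 6 arrays of the deletion strain. In the reference it gave 76.7, 62.4 and 59.9 under carbon and 110.4, 96.3 and 101.4 under nitrogen limitation, so every array matched its strain label. Several arrays stood apart in control probe sets. The actin 3'/5' ratio, which grows as labelled transcripts get shorter, was 1.54 to 1.91 in the deletion strain. In the reference it was 2.45, 2.55 and 3.29 under nitrogen limitation and 3.31, 9.27 and 14.0 under carbon limitation. A bacterial control transcript, ThrX, read 3094.8 and 2747.7 in nitrogen-limited reference samples 2 and 3, where the other 10 arrays reached 1.6 at most. Values without these reference arrays, or with the actin ratio as a model term, are given beside the results they change.

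BAT1 was high in the reference strain and low in the deletion strain under both limitations. Under carbon limitation its intensity was 536.2, 446.8 and 464.2 in the reference (482 ± 47.4, SD, n = 3) and 164, 217.9 and 163.6 in the deletion strain (182 ± 31.2, SD, n = 3). Under nitrogen limitation it was 671.7, 625.7 and 682.5 in the reference (660 ± 30.2, SD, n = 3) and 207.7, 263.6 and 211.4 in the deletion strain (228 ± 31.3, SD, n = 3). All 6 deletion arrays lay below all 6 reference arrays.

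The fall of BAT1 passed the test under both limitations. Relative to centred arrays the falls were -1.40 and -1.58, and BAT2 gave 1.39 and 0.14; this scaling moved the median of all genes from -0.11 to 0.04 and from 0.05 to -0.12. Under nitrogen limitation it was -1.54 ± 0.16 on the log2 scale (SE; 95% interval -1.87 to -1.21), or 2.92-fold, with an adjusted p of 6.17e-06 by limma. Genes called lower in this comparison made up 16.1% of those tested, and genes whose deletion arrays all lay below the reference arrays made up 30.3%. BAT1 had the 39th largest decrease of 5321. Under carbon limitation the change was -1.42 ± 0.16 (95% interval -1.75 to -1.09), or 2.67-fold, with an adjusted p of 4.65e-05 by limma. There 10.7% of the genes tested were called lower, 16.6% had deletion arrays wholly below the reference, and BAT1 ranked 22nd among decreases. When the actin ratio was added to the model the falls of BAT1 were -1.62 and -1.66, both past the threshold. Without carbon-limited reference arrays 2 and 3, which had the highest actin ratios, the carbon-limited fall was -1.57.

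The strain effect on BAT1 did not differ detectably between the limitations. The difference, nitrogen minus carbon, was -0.13 ± 0.22 on the log2 scale, with a 95% interval from -0.60 to 0.34 and an adjusted p of 0.717 by limma. An interval of this width leaves room for a moderate difference either way. A decrease past the threshold under both limitations was shared by 163 genes, or 3.06% of those tested.

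**Figure D1:**
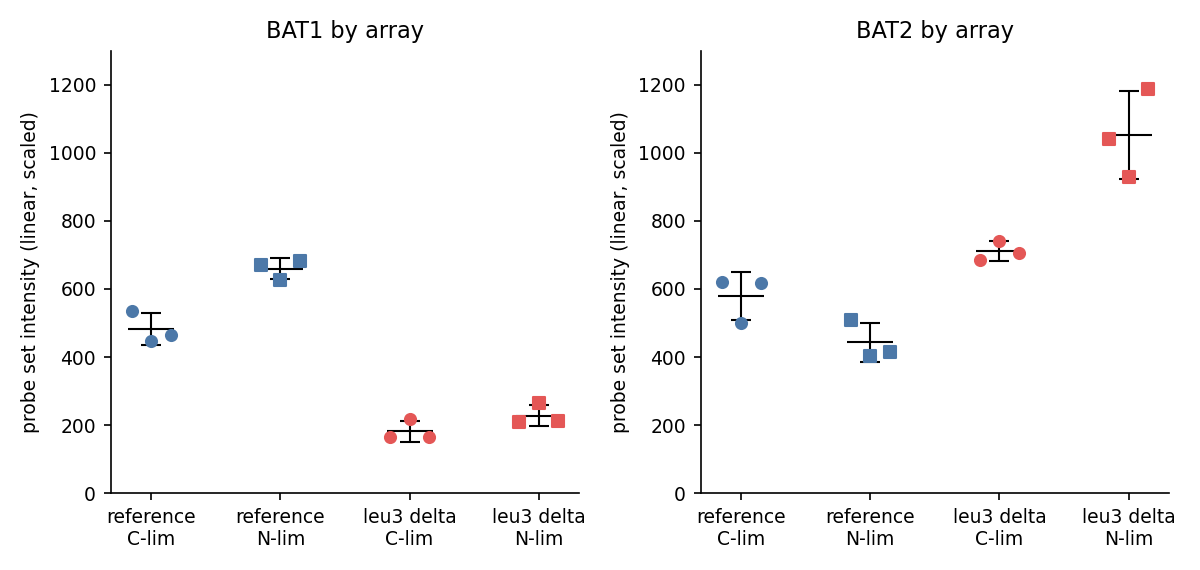
Intensity of BAT1 and BAT2 on each of the 12 arrays, by strain and limitation, with group means and SD (bars). BAT1 lies lower on all 6 deletion arrays than on any reference array, and BAT2 is highest on the 3 nitrogen-limited deletion arrays.

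BAT2 rose in the deletion strain under nitrogen limitation and did not pass the test under carbon limitation. On the carbon-limited arrays its intensity was 620.2, 498.7 and 618.6 in the reference (579 ± 69.7, SD, n = 3) and 684.2, 742.2 and 704.7 in the deletion strain (710 ± 29.4, SD, n = 3). On the nitrogen-limited arrays it was 508.4, 404.1 and 416 in the reference (443 ± 57.1, SD, n = 3) and 1040.2, 929.1 and 1188 in the deletion strain (1052 ± 130, SD, n = 3). The deletion arrays lay above the reference arrays under each limitation, narrowly with ethanol and widely with nitrogen limitation.

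Under nitrogen limitation BAT2 rose by 1.25 ± 0.15 on the log2 scale (95% interval 0.93 to 1.57), or 2.38-fold, with an adjusted p of 3.6e-05 by limma. Of the genes tested, 6.05% were called higher there, 14.2% had deletion arrays wholly above the reference, and BAT2 had the 60th largest increase. Under carbon limitation the difference was 0.30 ± 0.15 (95% interval -0.02 to 0.62), with an adjusted p of 0.149 by limma. Its arrays did not overlap, as was the case for the 23.6% of genes whose deletion arrays all lay above the reference, against 17.4% called higher. The BAT2 strain effect was larger under nitrogen limitation by 0.95 ± 0.21 on the log2 scale (95% interval 0.49 to 1.40), with an adjusted p of 0.00768 by limma. This difference passed in 18.3% of the genes tested, 5.24% with this sign and 13.1% with the opposite sign. Without nitrogen-limited reference arrays 2 and 3, which carried the ThrX signal, a single array is left in that group. The BAT2 rise was then 1.04, and the difference between limitations fell to 0.74.

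Within a strain, the limitation effects on the genes had opposite signs in the reference and the same sign in the deletion strain. The difference between the genes in this response was tested below on average over the strains (exact permutation p = 0.185). That average sets -0.84 in the reference against 0.23 in the deletion strain, so it does not test the opposite signs in the reference. There the exact permutation p was 0.1, the smallest that 3 arrays against 3 allow. In the reference strain BAT1 was higher under nitrogen limitation by 0.46 ± 0.16 on the log2 scale, with arrays that did not overlap and an adjusted p of 0.0251 by limma. In that comparison 32.6% of the genes tested were called higher and 34.1% had arrays wholly above. The call for BAT1 ended with median centring (0.19, adjusted p 0.314 by limma) and with the actin ratio in the model (0.28). Without the named pair of carbon-limited arrays, which leaves a single array in that group, the difference was 0.30. Without the named pair of nitrogen-limited arrays, which likewise leaves a single array, it was 0.48, no smaller than with all arrays. The BAT1 call also ended in 4 of the 12 fits that each left out 1 array. Those were the fits without carbon-limited reference array 2 or 3 or nitrogen-limited reference array 1 or 3. BAT2 was lower in the same comparison by -0.39 ± 0.15, where 14.9% of genes were called lower. Its arrays overlapped, at an adjusted p of 0.0453 by limma. That call for BAT2, on which the count of the next paragraph rests, held in only 3 of the 12 fits that each left out 1 array.

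In the deletion strain BAT2 turned the other way and was higher under nitrogen limitation by 0.56 ± 0.15 (95% interval 0.24 to 0.88), with arrays that did not overlap and an adjusted p of 0.00886 by limma. Genes called higher in this comparison made up 18.1% and genes with arrays wholly above 28.3%. Without nitrogen-limited deletion array 3 the BAT2 difference was 0.47 with an adjusted p of 0.0555. For BAT1 the difference in the deletion strain was 0.33, its arrays overlapped and the adjusted p was 0.115 by limma. Without carbon-limited deletion array 2, the highest BAT1 value of its group, it was 0.47 with an adjusted p of 0.0438. The BAT2 pattern, called lower in the reference and higher in the deletion strain, was met by 38 genes, or 0.714% of those tested. Others among them were ILV2 and ILV5, which encode enzymes of the common branched-chain pathway, and THR4, threonine synthase. ILV2 gave -0.47 in the reference and 1.07 in the deletion strain, and THR4 gave -0.42 and 0.38.

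Ordered by mean intensity, BAT1 ran from the carbon-limited deletion group through the nitrogen-limited deletion group and the carbon-limited reference to the nitrogen-limited reference. Its 2 deletion groups overlapped, and the other neighbours in that order did not. BAT2 ran from the nitrogen-limited reference through the carbon-limited reference and the carbon-limited deletion group to the nitrogen-limited deletion group. Its 2 reference groups overlapped. The nitrogen-limited reference thus had the most BAT1 and the least BAT2. The levels of the genes are not compared with each other, because different probe sets have no common scale.

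The balance of the pair was followed as log2 BAT2 minus log2 BAT1 on each array, set to 0 at the mean of the carbon-limited reference, a difference in which array scaling cancels. In the reference it was -0.05, -0.10 and 0.15 under carbon limitation and -0.66, -0.89 and -0.98 under nitrogen limitation. In the deletion strain it was 1.80, 1.51 and 1.85 under carbon limitation and 2.06, 1.56 and 2.23 under nitrogen limitation. All 6 deletion arrays lay above all 6 reference arrays, with a gap of more than 1 on the log2 scale.

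Averaged over the limitations, the deletion moved the balance towards BAT2 by 2.26 on the log2 scale, or 4.77-fold. The two-sided exact permutation test, with strain labels permuted within each limitation, gave p = 0.005, the smallest value that its 400 arrangements allow. The shift was 2.79 under nitrogen limitation (6.93-fold) and 1.72 under carbon limitation (3.29-fold). Within a limitation 3 arrays against 3 cannot give an exact permutation p below 0.1, and both shifts gave 0.1. The limitation moved the balance by -0.31 on average over the strains (exact permutation p = 0.185), by -0.84 in the reference (p = 0.1) and by 0.23 in the deletion strain (p = 0.4).

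**Figure D2:**
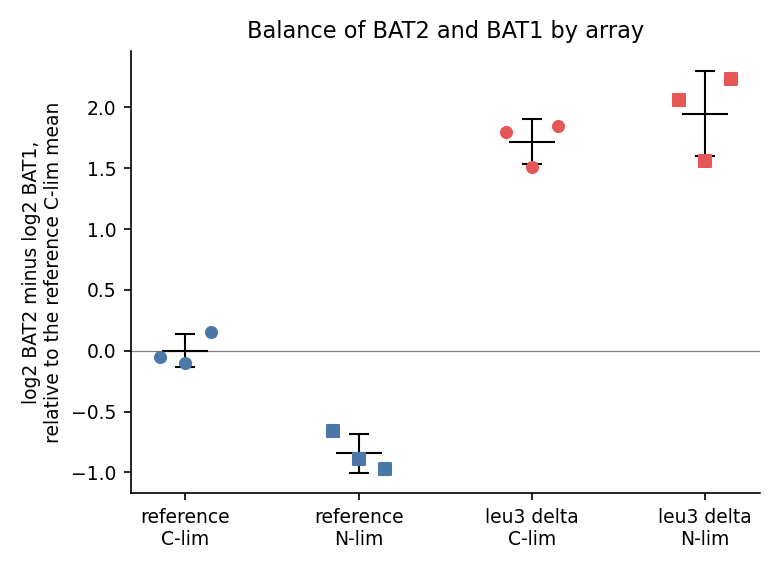
Log2 BAT2 minus log2 BAT1 on each array, relative to the mean of the carbon-limited reference arrays, with group means and SD (bars). The nitrogen-limited reference arrays lie lowest (-0.98 to -0.66) and the 6 deletion arrays highest (1.51 to 2.23).

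The genes were next set beside 10 others of branched-chain amino acid synthesis, 9 enzymes or enzyme subunits and the carrier OAC1, which moves alpha-isopropylmalate out of mitochondria. Under nitrogen limitation 7 of the 10 were higher in the deletion strain and 3 lower, against 6.05% and 16.1% of all genes tested. The median was 0.64, against -0.11 for all genes. Under carbon limitation none was higher and 7 were lower, against 17.4% and 10.7% of all genes (medians -0.70 and 0.05). Between limitations, 1 of the 10 was higher and 4 were lower with nitrogen limiting in the reference, against 32.6% and 14.9% of all genes. The medians were -0.40 for the 10 and 0.19 for all genes. In the deletion strain 6 were higher and 3 lower, against 18.1% and 17.8% of all genes (medians 0.52 and 0.02). The 3 that, like BAT1, were lower under both were LEU1 and LEU2, which encode the enzymes after the branch to leucine, and OAC1.

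LEU2, beta-isopropylmalate dehydrogenase, had nitrogen-limited intensities of 1598.8, 1347.9 and 1678.9 in the reference and 449.9, 505 and 444.9 in the deletion strain. Its strain effects were -1.72 under nitrogen and -1.68 under carbon limitation, and the difference of -0.04 (95% interval -0.46 to 0.38) did not pass. For LEU1, isopropylmalate isomerase, the effects were -1.74 and -1.31, and the difference of -0.43 did not pass either (adjusted p 0.237 by limma). OAC1 gave -0.60 and -1.21, and its nitrogen-limited call ended without reference arrays 2 and 3 (-0.32).

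As for BAT2, the strain effect was more positive under nitrogen limitation for part of the pathway. The difference between limitations passed upward in 5 of the 10 and downward in none, with a median of 1.12 against -0.20 for all genes. Among all genes tested it passed upward in 5.24% and downward in 13.1%. ILV6, the regulatory subunit of acetolactate synthase (1.06), and ILV1, threonine deaminase (0.31), did not pass. The 5 were ILV2, acetolactate synthase (1.54), ILV5, acetohydroxyacid reductoisomerase (1.27), ILV3, dihydroxyacid dehydratase (1.17), and the isopropylmalate synthases LEU4 (1.36) and LEU9 (1.36). Unlike BAT2, which was not lower under carbon limitation, ILV2, ILV5, ILV3 and LEU4 were called lower there, at -0.74, -0.78, -0.58 and -0.67. Those 4 carbon-limited calls ended with the actin ratio in the model, which left 3 of the 10 lower. That ratio separates the strains, so with it in the model a carbon-limited strain effect is estimated less precisely. The number higher under nitrogen limitation was 3 instead of 7 without nitrogen-limited reference arrays 2 and 3.

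**Figure D3:**
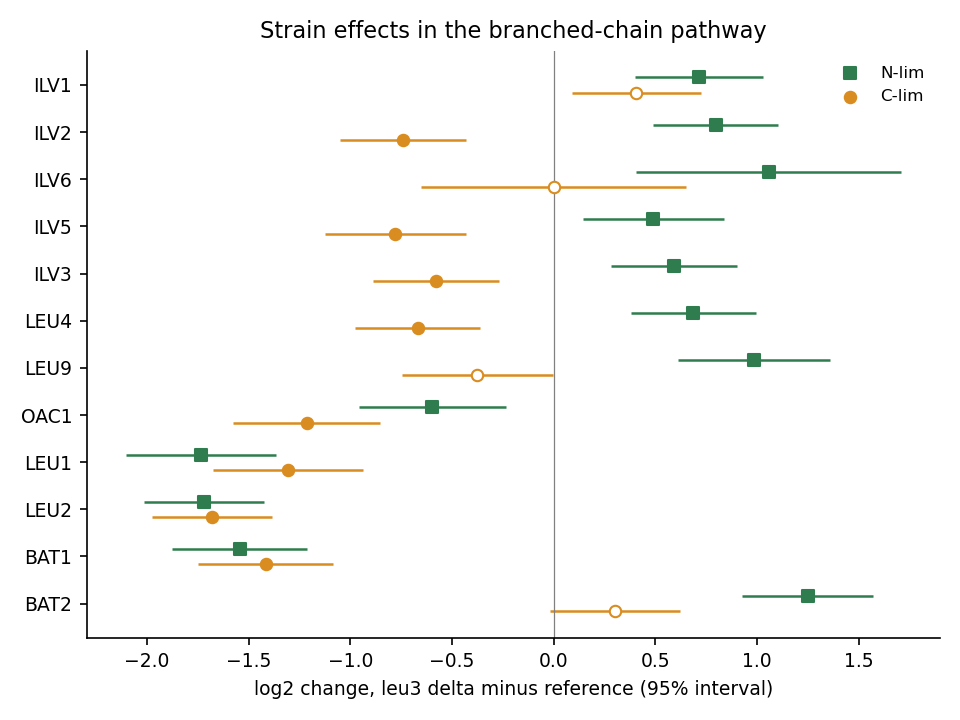
Strain effects (log2, deletion minus reference) under nitrogen (squares) and carbon limitation (circles) for BAT1, BAT2 and the 10 other genes of branched-chain synthesis, with 95% intervals and filled symbols where the test was passed. BAT1 (-1.54 and -1.42) lies with LEU1 and LEU2, well below 0 under both limitations, while BAT2 (1.25 and 0.30) lies above 0 under both.

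Among 14 other aminotransferases, 7 were higher and 1 was lower in the nitrogen-limited deletion strain, with a median log2 change of 0.51 against -0.11 for all genes, of which 6.05% were called higher and 16.1% lower. Under carbon limitation 3 were higher and 2 lower, near the 17.4% and 10.7% of all genes, with a median of 0.04, or -0.13 with median centring. None of the 14 was lower under both limitations as BAT1 was. The lowest nitrogen-limited value, -0.80, was that of ALT2, a homologue of alanine transaminase, and its call ended without nitrogen-limited reference arrays 2 and 3. The carbon-limited calls of this group depend on the model: none of the 14 passed with the actin ratio in it, a term that overlaps with strain. Leaving out carbon-limited reference arrays 2 and 3 leaves a single array in that group and cannot decide these calls.

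The aminotransferases of aromatic amino acids moved furthest with BAT2 under nitrogen limitation. ARO9, aromatic aminotransferase II, had nitrogen-limited intensities of 13.3, 25.3 and 20.1 in the reference and 111, 113.5 and 113.4 in the deletion strain, a rise of 2.57 on the log2 scale. Under carbon limitation the ARO9 difference was -0.32 and did not pass, and the difference between limitations was 2.89. ARO8, aromatic aminotransferase I, rose from 875.5, 880.4 and 896.1 to 2170.3, 2017.8 and 2184.3, by 1.26. Of the rest, ARG8 (acetylornithine aminotransferase, 1.17), HIS5 (histidinol-phosphate aminotransferase, 1.03), ALT1 (alanine transaminase, 0.85), SER1 (phosphoserine aminotransferase, 0.63) and AAT2 (cytosolic aspartate aminotransferase, 0.48) also rose, the last 2 without passing when nitrogen-limited reference arrays 2 and 3 were left out.

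The gap between BAT2 and BAT1 can be set beside those of 4 other pairs of related enzymes, as values without a test. The strain effect of BAT2 minus that of BAT1 was 2.79 under nitrogen and 1.72 under carbon limitation. For AAT2 minus AAT1, the cytosolic and mitochondrial aspartate aminotransferases, it was 0.10 and -0.30. For LEU9 minus LEU4 it was 0.30 and 0.29. For ARO9 minus ARO8 the values were 1.31 and -0.96, and for ALT2 minus ALT1 they were -1.65 and -0.04.

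**Figure D4:**
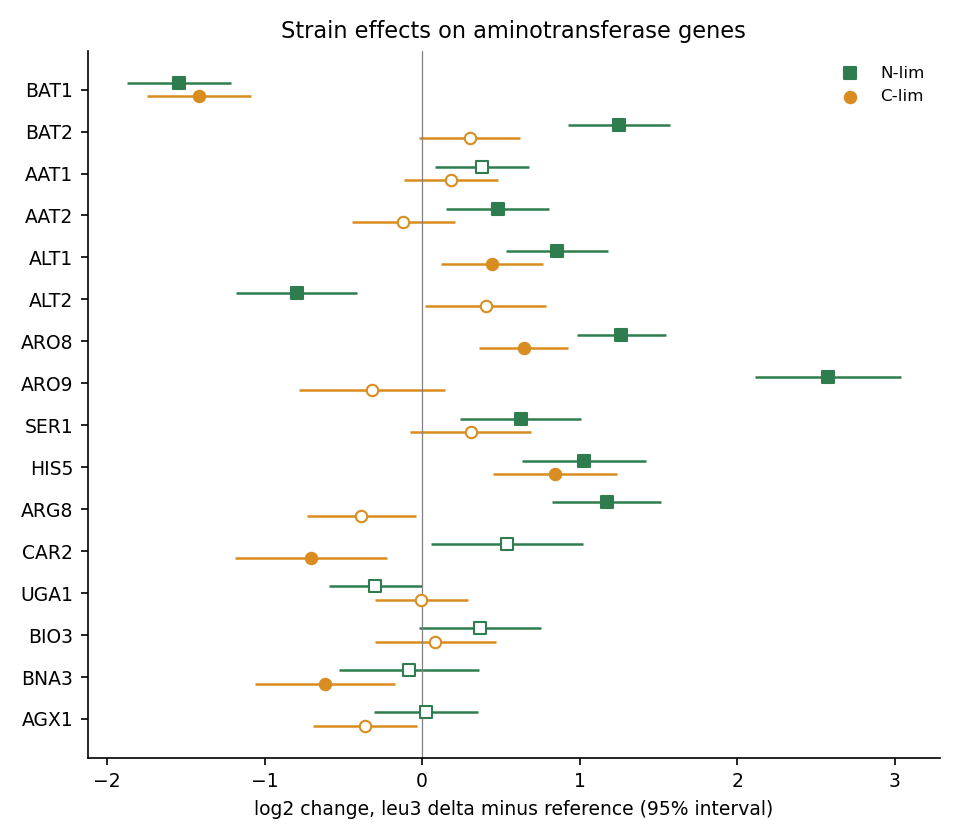
Strain effects (log2, deletion minus reference) of BAT1, BAT2 and 14 other aminotransferases under nitrogen (squares) and carbon limitation (circles), with 95% intervals and filled symbols where the test was passed. BAT1 is the lowest of the 16 under both limitations, and ARO9 (2.57), ARO8 (1.26) and BAT2 (1.25) are the highest under nitrogen limitation.

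The steps that follow Bat2 in the Ehrlich pathway are decarboxylation and reduction to alcohols. Of 7 tested genes for them, 3 were higher and 3 lower in the nitrogen-limited deletion strain, and 2 were higher and 1 lower under carbon limitation. The shares of all genes were 6.05% and 16.1% under nitrogen and 17.4% and 10.7% under carbon limitation, so the carbon-limited counts are near the background. The medians were -0.02, which turned to 0.12 with median centring, and -0.10. ARO10, the broad-substrate decarboxylase, rose by at least 2.60 under nitrogen limitation, a lower bound because its intensity was 7 to 12 on the nitrogen-limited reference arrays, none above the floor of 12 set before log2. The bound was 1.55 with a floor of 25. In the same comparison, the pyruvate decarboxylase genes PDC5 and PDC6 gave -1.14 and -1.82 and THI3, a decarboxylase-like regulator of thiamine genes, -0.63. Without nitrogen-limited reference arrays 2 and 3, which leaves a single array in that group, THI3 gave -0.58. None of the 7 passed under carbon limitation without carbon-limited reference arrays 2 and 3.

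Amino acid permeases and their sensor gave 0 genes higher and 4 lower of 7 tested under nitrogen limitation, and 2 higher and 1 lower under carbon limitation, with medians of -0.39 and 0.16, the latter at 0 with median centring. All genes gave 6.05% higher and 16.1% lower under nitrogen limitation, and the carbon-limited counts are near the 17.4% and 10.7% of all genes. Without nitrogen-limited reference arrays 2 and 3 the lower genes were 2, and without the carbon-limited pair no carbon-limited permease was higher. BAP2, a branched-chain amino acid permease, was lower under both, by -0.63 and -2.49. The nitrogen-limited BAP2 call ended with a floor of 25, with median centring (-0.48) and without nitrogen-limited reference arrays 2 and 3 (-0.53). Of 8 regulators, 1 was higher and 2 were lower under nitrogen limitation, and likewise under carbon limitation, with medians of -0.20 and 0.03, the latter -0.14 with median centring. LEU3 itself was 1 of the 2 lower genes each time, and without it the counts are near the shares of all genes (6.05% and 16.1%, 17.4% and 10.7%). GCN4, the activator of amino acid synthesis genes under starvation, gave -0.05 and -0.19 and passed neither test.

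The genes whose pattern over the 12 arrays was most like that of each gene were found by the root mean square difference of centred log2 values among 5320 other genes. For BAT1, whose own root mean square about its mean was 0.78, the closest were UME6 (0.242), AIP1 (0.272), MYO1 (0.301), NUP42 (0.319) and YOR186W (0.351). UME6, a regulator of meiotic genes, had intensities of 47.2 to 53.3 on the deletion arrays and 93.6 to 173 on the reference arrays. Closest to the mirror image of BAT1 were WHI5 (0.279), YJR154W (0.337) and YAH1 (0.355). WHI5, a repressor of the start of the cell cycle, and YJR154W were below the floor of 12 on all 6 reference arrays, so their pattern there is that of the floor. YOR186W was likewise below it on the 3 nitrogen-limited deletion arrays.

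For BAT2, with an own value of 0.47, the closest were STR2 (0.132), ARO1 (0.197), GPP1 (0.202), PXP2 (0.206) and THR4 (0.212). STR2, cystathionine gamma-synthase of sulfur amino acid metabolism, had nitrogen-limited intensities of 175, 131.7 and 148.2 in the reference and 308.7, 305.3 and 317.3 in the deletion strain. Its strain effect of 1.04 was somewhat below that of BAT2. The mirror image was approached by NRG2 (0.167), SFI1 (0.167) and COX26 (0.170). These distances describe the arrays and carry no test.

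**Figure D5:**
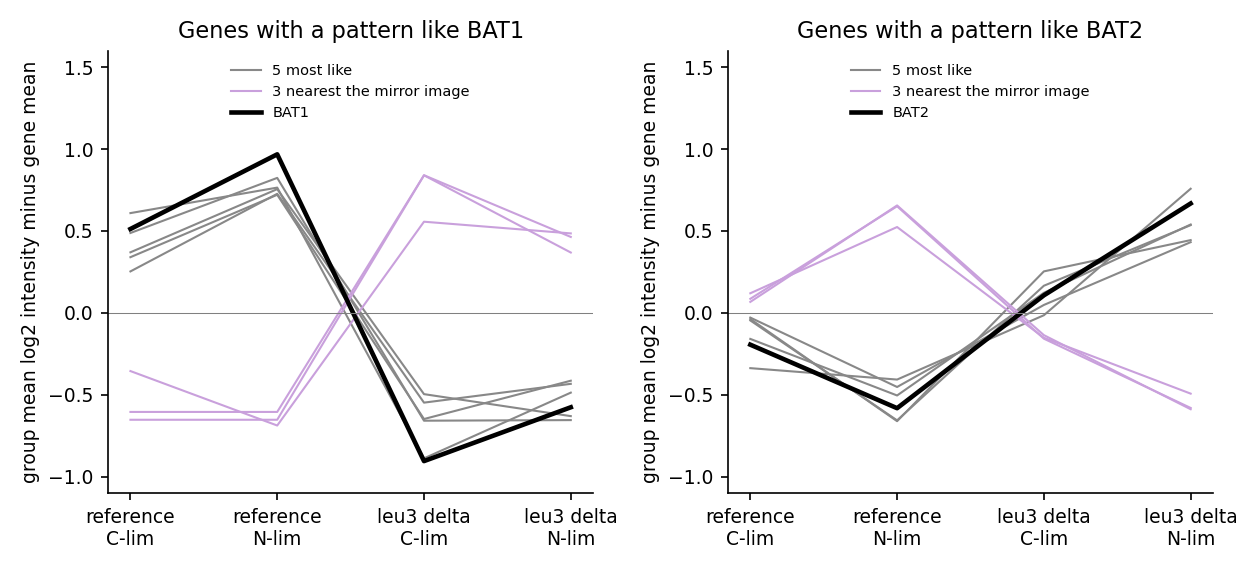
Group means of log2 intensity, centred on each gene's mean, for BAT1 and BAT2 with the 5 genes most like each and the 3 nearest its mirror image. As the genes were chosen by these patterns, the BAT1 set separates the strains under both limitations and the BAT2 set most under nitrogen limitation.

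The chromosomal neighbours of the genes were read for a shared pattern. Next to BAT1 are SET5, a methyltransferase gene, and CRG1, and neither passed a strain effect. YHR210C, the next gene beyond CRG1, was lower under carbon limitation by -0.45 (adjusted p 0.0406 by limma). In that comparison the genes called fell from 1494 to 54 with the actin ratio in the model. Beside BAT2 are HMS2 and YJR149W, and the genes beyond them, YJR146W and DAN1, had too little signal to be tested. YJR149W passed neither strain effect, while HMS2 was lower under nitrogen limitation by -0.61 (adjusted p 0.0334 by limma) and higher under carbon limitation by 0.81 (adjusted p 0.0066 by limma). HMS2 lies near the floor, with 2.7, 21.3 and 10.1 on the nitrogen-limited deletion arrays, so its changes are set in part by the floor. Its carbon-limited reference arrays, at 11.3, 11.9 and 6.5, all lay below the floor of 12, so the carbon-limited rise is measured from the floor.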

How the data were processed

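The deposited values are probe set intensity on a linear scale, scaled by the authors to a common 2% trimmed mean per the labels' protocols. The sources used here do not give the software, the background treatment or detection calls. Each group had 3 arrays, which limits the precision. Intensities were floored at 12 before log2. Genes above 12 on at least 3 of 12 arrays (5321) were fitted in limma 3.58.1 (R 4.3.3) with 4 group means, two-sided tests and Benjamini-Hochberg adjustment over all tested genes, with a threshold of 0.05. The model was tested on simulated data. A gene with several probe sets was read from its brightest. The balance of the pair was tested by exact permutation over arrays. Alternatives were a floor of 25, quantile normalization, median centring, an actin 3'/5' term, a replicate block, other probe set rules, groups fitted alone, and arrays left out.

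BAT1 and BAT2, the lists and the tests were chosen with earlier results of these data known. Genes named are the pair, the listed genes (synthesis, aminotransferases, Ehrlich steps, uptake, regulators), the 5 most like and 3 mirror genes of each, and chromosomal neighbours, from RefSeq names. No probe or protein sequence was used here, so cross-hybridisation between BAT1 and BAT2 was not tested.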

Additional observations from a re-analysis of the deposited data

Results flagged for a closer look

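The strain effect differed between limitations for BAT2 (0.95) and for 20 listed genes, by the limma interaction term. Values are nitrogen minus carbon on the log2 scale. Of all genes tested, 18.3% passed this test, 5.24% upward and 13.1% downward. The lists, in the order below, held 10, 14, 7, 7 and 8 tested genes. In branched-chain synthesis the genes that passed were ILV2 (1.54), ILV5 (1.27), ILV3 (1.17), LEU4 (1.36) and LEU9 (1.36). Among aminotransferases they were ARO9 (2.89), ARG8 (1.56), CAR2 (1.25), ARO8 (0.62) and ALT2 (-1.20).

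In the Ehrlich steps the difference was at least 3.12 for ARO10, whose nitrogen-limited reference arrays did not exceed the floor of 12 (2.06 with a floor of 25), -1.04 for PDC5, -1.29 for PDC6 and -0.86 for THI3. Among permeases it was 1.86 for BAP2, -1.11 for TAT1, -1.23 for AGP1 and -1.08 for GAP1. The BAP2 value rests in part on intensities near the floor, 10, 12.7 and 14.4 on the nitrogen-limited deletion arrays. The TAT1 value is set by the floor, since its 3 nitrogen-limited deletion arrays lay below 12 (4.5 to 5), and it did not pass with a floor of 25 (-0.44). Among regulators it was -1.19 for DAL80 and -0.64 for LEU3, whose deletion arrays all lay below the floor of 12.

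A control probe set outside the comparisons also gave signal: the ThrX transcript read 3094.8 and 2747.7 in nitrogen-limited reference samples 2 and 3, where no other array passed 1.6. Without this pair, which leaves a single array in that group, the BAT2 difference fell to 0.74.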

How the results depend on the processing

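The falls of BAT1 and the nitrogen-limited rise of BAT2 kept direction and call under every alternative run for them, leave-one-out fits included. So did the shift of their balance, which was not run with the actin term, the replicate block, groups alone or no filter. Ranges over those fits were -1.65 to -1.48 and -1.55 to -1.34 for BAT1 under nitrogen and carbon limitation, 1.16 to 1.35 for BAT2 and 2.19 to 2.35 for the balance. Leaving out single arrays gave BAT1 an interaction of -0.24 to 0.010 and limitation effects of 0.40 to 0.53 (reference) and 0.22 to 0.47 (deletion), and BAT2 -0.49 to -0.33 and 0.47 to 0.65. The BAT1 interaction, never called, was 0.18 with median centring, 0.041 with the actin term and 0.030 without carbon-limited reference arrays 2 and 3. The BAT2 interaction was 0.74 without nitrogen-limited reference arrays 2 and 3. The limitation effect on BAT1 in the reference missed the threshold with median centring (0.19) and the actin term (0.28). Without the carbon or nitrogen reference pair, each fit keeping a single array of that group, it was 0.30 and 0.48. The limitation effect on BAT2 in the reference missed the threshold with the replicate block (-0.39), groups alone (-0.39) and the actin term (-0.44). Without the same pairs it was -0.49 (carbon) and -0.18 (nitrogen).

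Genes called under nitrogen limitation numbered 1181, and 715 without nitrogen-limited reference arrays 2 and 3. Under carbon limitation they were 1494, but 805 with groups alone, 54 with the actin term and 363 without carbon-limited reference arrays 2 and 3. Interaction calls were 976, then 417 with the actin term and 642 and 496 without the carbon and nitrogen pairs, and 644 to 1409 on leaving out single arrays. Limitation calls in the reference were 2532, then 1289, 1553 and 1529. Median centring moved the higher and lower calls from 322 and 859 to 538 and 485 (nitrogen), 926 and 568 to 539 and 996 (carbon), 279 and 697 to 614 and 241 (interaction) and 1737 and 795 to 951 and 1370 (reference limitation), the last to 1284 and 917 with quantile normalization. Causes were not tested.

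Array numbers did not pair the samples: same-numbered arrays of different groups correlated in their residuals at -0.31 to 0.16, and the closest array had the same number in 4 of 36 comparisons. The replicate block gave 1043, 1358, 857, 2421 and 1787 calls and changed no other call of BAT1 or BAT2.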
